A study of Rattus norvegicus with 16 samples.

Results

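The mir-181 family consists of 6 hairpins in the rat, rno-mir-181a-1, rno-mir-181a-2, rno-mir-181b-1, rno-mir-181b-2, rno-mir-181c and rno-mir-181d, written without rno below. They were chosen by name from the 392 hairpins to which reads were assigned. Reads were summed per hairpin arm, and the 5p arms of both mir-181a loci, and of both mir-181b loci, were added, since each pair makes 1 mature sequence. This left 10 arms of 710, that is 4 sequences from the 5p side and 6 from the 3p side. They held 18375 reads in 16 libraries, 16656 on the 5p side and 1719 on the 3p side.

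Small RNA of adult males of 2 inbred rat strains was sequenced from 6 tissues, namely heart, kidney, testis, spleen, liver and whole brain. BN-Lx is a brown Norway strain that carries the polydactyly-luxate syndrome, and SHR is the spontaneously hypertensive rat. The 6 tissues of a strain came from 1 rat, which gave 12 libraries (the first set), and 4 further livers (2 BN-Lx, 2 SHR) brought the livers to 3 per strain. Strain and rat therefore cannot be told apart in the 6 tissues, and the 2 strains are the only replicates of a tissue. Levels below are CPM, counts per library total, scaled by the trimmed mean of M-values (TMM), which sets libraries to the bulk of the arms they share.

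The libraries of the 6 tissues held 26880 to 1064894 reads, with the testis libraries at 26880 and 29131 and all others at or above 403453, and the further livers held 1167607 to 3229461. In testis 3 reads, the most that a count of 0 allows, correspond to a level of 57.7 in BN-Lx and 59.5 in SHR, so an arm with no reads there may have a level up to these values. Of 19 arms known as markers of the 6 tissues, 17 were highest in the labelled tissue in both strains. The arms mir-192-5p and mir-194-1-5p, listed for kidney, were highest in liver. Both mir-124 arms of the brain list had equal levels in each of the 12 libraries, so they are not separate markers.

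A miRNA hairpin is cut into a 5p and a 3p strand, one of which usually accumulates while the other is mostly lost. The accumulated strand is loaded into the RNA-induced silencing complex and recognizes mRNAs chiefly through its seed, the bases near its 5′ end. In mammals mir-181 is known from lymphocyte development, where mir-181a tunes the sensitivity of the T cell receptor, and it is also abundant in neurons. The 5p strand is regarded as the main product of all 6 hairpins, and the 3p strands are the ones that differ enough to tell the loci apart.

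The 5p sequences are shown because they share a seed, so that their reads can be treated as 1 pool of that specificity. All are RefSeq sequences, printed 5′ to 3′ with the seed (bases 2 to 8) in capitals.
mir-181a-5p: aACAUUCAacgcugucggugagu
mir-181b-5p: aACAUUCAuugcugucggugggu
mir-181c-5p: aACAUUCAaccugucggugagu
mir-181d-5p: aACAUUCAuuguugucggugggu
On GRCr8 the mir-181a-5p sequence lies on the plus strand at chr13:52037081-52037103 (mir-181a-1) and chr3:43025601-43025623 (mir-181a-2), mir-181b-5p of mir-181b-1 at chr13:52037263-52037285, mir-181c-5p at chr19:40888314-40888335 and mir-181d-5p at chr19:40888484-40888506. The loci thus form 3 pairs, with mir-181a-1 beside mir-181b-1, mir-181a-2 beside mir-181b-2 and mir-181c beside mir-181d. The RefSeq annotation places the pair on chromosome 3 within the bounds of Nr6a1, which encodes a nuclear receptor, and the pair on chromosome 13 within those of a long non-coding RNA. Counted from the 5′ end, mir-181a-5p and mir-181b-5p differ by A9U, C10U and A21G (mir-181a base first), mir-181b-5p and mir-181d-5p by C12U, and mir-181c-5p lacks 1 base of mir-181a-5p, at position 11. These 4 were the RefSeq mature rat miRNAs with this seed.

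The 3p sequences are shown because they are the part of the data that separates paralogous loci.
mir-181a-1-3p: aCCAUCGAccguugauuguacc
mir-181c-3p: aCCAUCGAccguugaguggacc
mir-181a-2-3p: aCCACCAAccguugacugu
mir-181b-1-3p: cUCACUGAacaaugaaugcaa
mir-181b-2-3p: cUCACUGGucaaugaaugcaa
mir-181d-3p: cCACCGGGggaugaauguca
RefSeq held a mature sequence for 9 of the 10 arms, and that of mir-181b-2-3p is the form, written as RNA, that was named for the most libraries (2) among 5 forms in the sequence list of the study. Among these arms mir-181a-1-3p and mir-181c-3p share a seed although their loci lie on chromosomes 13 and 19, and they differ by U16G and U19G (mir-181a-1 base first). The 3p arms of both mir-181a loci differ inside the seed, by U5C and G7A and again by U16C. Those of both mir-181b loci differ by A8G and A9U, the first of which is in the seed.

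On the 5p side mir-181a-5p was the most abundant member in all 16 libraries, and its level was highest in brain and spleen. With BN-Lx given first here and below, it reached 2455 and 1848 in brain and 2593 and 1449 in spleen. The levels were 1052 and 1309 in heart, 905 and 768 in kidney, 365 and 377 in testis, and 261 and 405 in liver. Every brain and spleen library was above every library of the other 4 tissues. As scaled by TMM, brain and spleen overlapped each other, as did testis and liver. Heart and kidney were separate from their neighbours in that order. The study divided reads by an outlier-corrected mean, which leaves out the 3 most read arms. On that scale both brains (3.03 and 2.13) lay above both spleens (1.66 and 1.19). Testis (0.626 and 0.556) then lay above liver (0.211 and 0.311), while kidney (0.732 and 0.622) overlapped heart (0.731 and 0.909) and testis. In bulk tissue fewer cells of a type and less RNA per cell cannot be told apart.

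Brain was compared with the unweighted mean of liver, heart, testis and kidney in an edgeR quasi-likelihood fit of all arms. There mir-181a-5p was 3.62-fold higher in brain (log2 1.85, SE 0.35, n = 2 libraries, adjusted p = 0.00064). Spleen against the same 4 tissues gave a 3.38-fold difference (log2 1.76, SE 0.36, adjusted p = 0.0033), with the same tool. Between brain and spleen the log2 difference of mir-181a-5p was 0.10 (SE 0.49, adjusted p = 0.88).

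The level of mir-181b-5p, the second most abundant member, did not follow that order. It was 664 and 350 in brain, 464 and 597 in heart, 396 and 350 in kidney, 416 and 206 in spleen, 115 and 179 in testis, and 36.4 and 172 in liver. The ranges of heart, brain, kidney and spleen overlapped from each to the next, and testis and liver lay below them. The difference of brain from the 4 tissues was 1.13 on the log2 scale (SE 0.52) and that of spleen 0.43 (SE 0.55), and edgeR called neither (adjusted p = 0.078 and 0.70).

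As scaled by TMM, the highest mean level of mir-181c-5p was in heart, 432 ± 200 (SD, n = 2), ahead of spleen at 387 ± 108 and brain at 263 ± 85.4. Its levels were 291 and 573 in heart, 311 and 463 in spleen, 323 and 202 in brain, 180 and 218 in kidney, 154 and 119 in testis, and 29.8 and 81.0 in liver. Spleen exceeded the 4 tissues by 1.28 on the log2 scale (SE 0.43, adjusted p = 0.049 by edgeR). Of 23 alternative settings 19 took this call away, so it lies at the threshold. In brain the difference was 0.80 (SE 0.44, adjusted p = 0.14).

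The rarest 5p member was mir-181d-5p, with 343 reads in all. Its levels were 56.8 and 120 in heart, 61.7 and 48.3 in brain, 45.4 and 60.5 in kidney, 33.1 and 33.1 in spleen, 9.92 and 13.0 in liver, and 0 and 19.8 in testis, where the SHR value is 1 read. Heart, brain and kidney overlapped. Neither brain (log2 1.08, SE 0.57) nor spleen (log2 0.32, SE 0.62) passed the test against the 4 tissues (edgeR, adjusted p = 0.13 and 0.84).

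**Figure D1:**
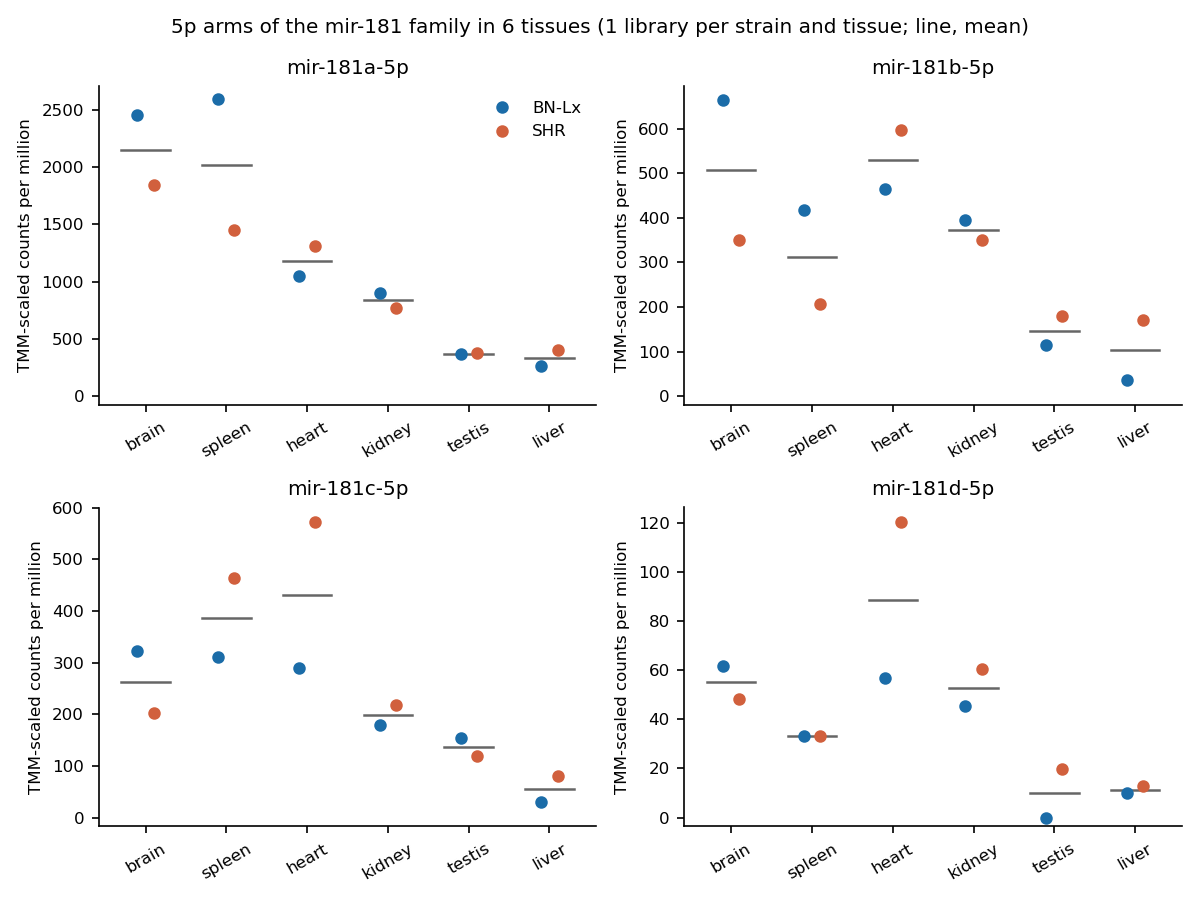
Levels of the 5p sequences, in TMM-scaled CPM on linear axes, for each tissue; each point is 1 library (blue BN-Lx, orange SHR) and the line is the mean of both strains. Every mir-181a-5p value in brain and spleen lies at or above 1449 and those of the other tissues at or below 1309. On this scale mir-181b-5p, mir-181c-5p and mir-181d-5p have their highest mean in heart, which is not so with the outlier-corrected mean of the study.

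The share of each member in the pool of the shared seed varied between libraries. Taking the 5p sequences together, the summed level was 3504 and 2449 in brain, 3354 and 2152 in spleen, 1864 and 2599 in heart, 1525 and 1397 in kidney, 634.5 and 694.5 in testis, and 337 and 670.2 in liver. With TMM, SHR heart thus exceeded the SHR brain and SHR spleen in the sum, which was not so for mir-181a-5p alone. As a percentage of all reads, with the 3p side included, the family held 0.392% in SHR brain, 0.207% in SHR heart and 0.203% in SHR spleen. The order of SHR heart and SHR brain thus depended on the scaling. In reads, mir-181a-5p made up 70.1% of the pool of the BN-Lx brain (95% Clopper-Pearson interval 68.9 to 71.2) and 75.5% of that of the SHR brain (73.9 to 77.0). In heart it made up 56.5% (52.2 to 60.6) and 50.4% (47.5 to 53.2), and in kidney 59.3% (55.8 to 62.7) and 55.0% (51.7 to 58.3). The spleens lay at 77.3% and 67.4%, the testes at 57.6% and 54.3%, and the livers at 77.5% and 60.4%. The mean share in brain, 72.8%, was 11.2 percentage points above the 61.6% of the other 10 libraries, a difference that did not pass the test (two-sided exact permutation test, p = 0.18, 0.28 after adjustment over 5 such tests). Such intervals cover counting error only, because amplified copies of a molecule are counted as separate reads.

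The complement in heart came from the other members. In SHR heart mir-181b-5p held 23.0%, mir-181c-5p 22.1% and mir-181d-5p 4.62% of the pool, against 14.3%, 8.26% and 1.97% in SHR brain. In BN-Lx the values were 24.9%, 15.6% and 3.05% in heart and 19.0%, 9.22% and 1.76% in brain. In SHR spleen mir-181c-5p held 21.5% (interval 18.9 to 24.4) and in BN-Lx spleen 9.29% (7.96 to 10.8), so the same tissue of the 2 rats differed by more than counting error.

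**Figure D2:**
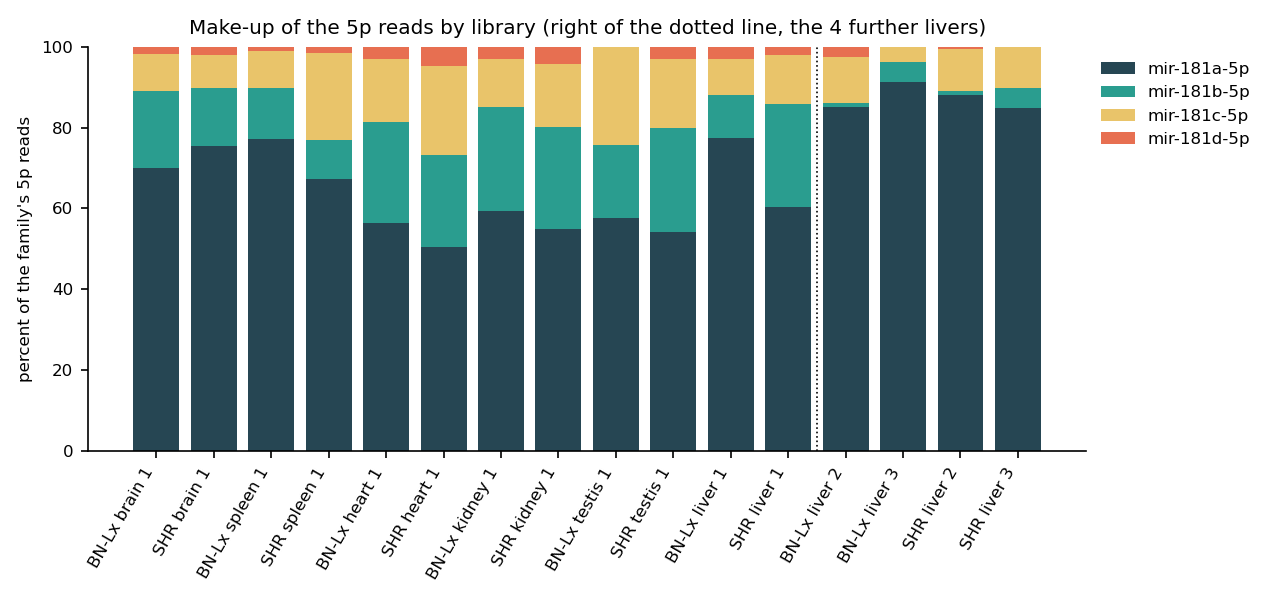
Percent of the family's 5p reads that belong to each sequence, stacked to 100 for each of 16 libraries; the 4 further livers stand right of the dotted line. mir-181a-5p ranges from 50.4% in SHR heart to 91.3% in a further BN-Lx liver, and mir-181b-5p falls to between 0.926% and 5.03% in the further livers.

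The 3p arms gave a view of the single loci. The 3p arm of mir-181a-1 was read 193 and 162 times in brain and 60 and 47 times in spleen. Its levels were 117 and 133 in brain, 117 and 111 in spleen, 45.4 and 73.2 in kidney, 53.4 and 35.8 in heart, 9.92 and 13.0 in liver, and 0 and 19.8 in testis. As scaled by TMM, brain and spleen overlapped each other and lay above all other libraries, as they did for mir-181a-5p. Over the outlier-corrected mean both brains (0.1442 and 0.1525) lay above both spleens (0.0748 and 0.0910). The arm was 5.30-fold higher in brain than in the 4 tissues (log2 2.41, SE 0.50, edgeR adjusted p = 0.0012) and 4.88-fold higher in spleen (log2 2.29, SE 0.51, adjusted p = 0.0068). Testis had 0 and 1 reads of the arm and liver 3 and 4, so the size of both folds rests on few reads. With 1 library left out, the log2 value ran from 2.10 to 3.68 in brain and from 2.02 to 3.65 in spleen. Brain and spleen differed by 0.12 on the log2 scale (SE 0.61, adjusted p = 0.88).

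The 3p arm of mir-181a-2 showed another distribution. Its levels were 26.5 and 17.5 in kidney, 21.4 and 9.46 in spleen, 6.68 and 14.8 in heart, 19.2 and 0 in testis (1 and 0 reads), 5.44 and 4.91 in brain, and 0 and 9.71 in liver. Both kidney libraries were above both brain libraries, but every tissue overlapped the next in order. With 68 reads over the 12 libraries the difference of brain from the 4 tissues was -0.98 on the log2 scale (SE 0.996, adjusted p = 0.44 by edgeR).

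As the 5p arms of both loci are identical, the 3p reads are what separates the loci. The share of mir-181a-1-3p among the mir-181a 3p reads in brain was 95.5% (193 of 202 reads, interval 91.7 to 97.9) and 96.4% (162 of 168, 92.4 to 98.7). In spleen it was 84.5% (74.0 to 92.0) and 92.2% (81.1 to 97.8), in heart 88.9% (65.3 to 98.6) and 70.8% (48.9 to 87.4), and in kidney 63.2% (45.99 to 78.2) and 80.7% (68.1 to 90.0). Among libraries with at least 10 such reads, brain had the highest share in both strains and BN-Lx kidney the lowest. The mean over both brains, 96.0% ± 0.625 (SD, n = 2), was 15.9 percentage points above the 80.0% ± 11.1 of the 6 other libraries with at least 10 such reads. This was the most extreme of all arrangements, but 2 against 6 libraries cannot go below p = 0.071, which is the value reached (two-sided exact permutation test, 0.28 adjusted over 5 tests).

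The mir-181b loci could be separated less well. The level of mir-181b-1-3p was 82.3 and 72.9 in brain, 56.4 and 21.3 in spleen, 30.1 and 4.22 in heart, 30.3 and 1.59 in kidney, 9.92 and 3.24 in liver, and 0 in both testes. Both brain libraries were above all others. In the fit mir-181b-1-3p was higher in brain than in the 4 tissues (log2 4.59, SE 0.93, edgeR adjusted p = 0.0013), but with testis at 0 reads that size depends on the prior count of the model. Without both testis libraries the log2 difference was 3.13 (adjusted p = 0.0026). Against testis alone, the level was 1.43 times that of 3 testis reads in the BN-Lx brain and 1.22 times in the SHR brain. The brain counts were taken as exact here, so these folds are not lower bounds. In spleen the arm did not pass (log2 3.26, SE 1.09, adjusted p = 0.053).

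Of mir-181b-2-3p there were 41 reads, too few for the filter, 9 of them in BN-Lx brain, 12 in BN-Lx heart and 8 in BN-Lx kidney. In BN-Lx its share of the mir-181b 3p reads left 93.8% to mir-181b-1 in brain (interval 88.5 to 97.1), 82.9% in spleen (66.4 to 93.4), 66.7% in kidney (44.7 to 84.4) and 42.9% in heart (21.8 to 66.0). The intervals of BN-Lx brain and BN-Lx heart did not overlap. In SHR brain mir-181b-1 provided 98.9% (89 of 90 reads, 94.0 to 99.97), and no other SHR library of the first set had 10 such reads. The comparison of brain with the others thus set 1 library of each strain against 3 of BN-Lx, so tissue and strain cannot be told apart in it. Only 5 of the 12 libraries had at least 10 such reads, so the mean difference of 32.2 percentage points between brain and the others could reach no less than p = 0.20, the value obtained (exact permutation test, two-sided, adjusted p = 0.28).

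**Figure D3:**
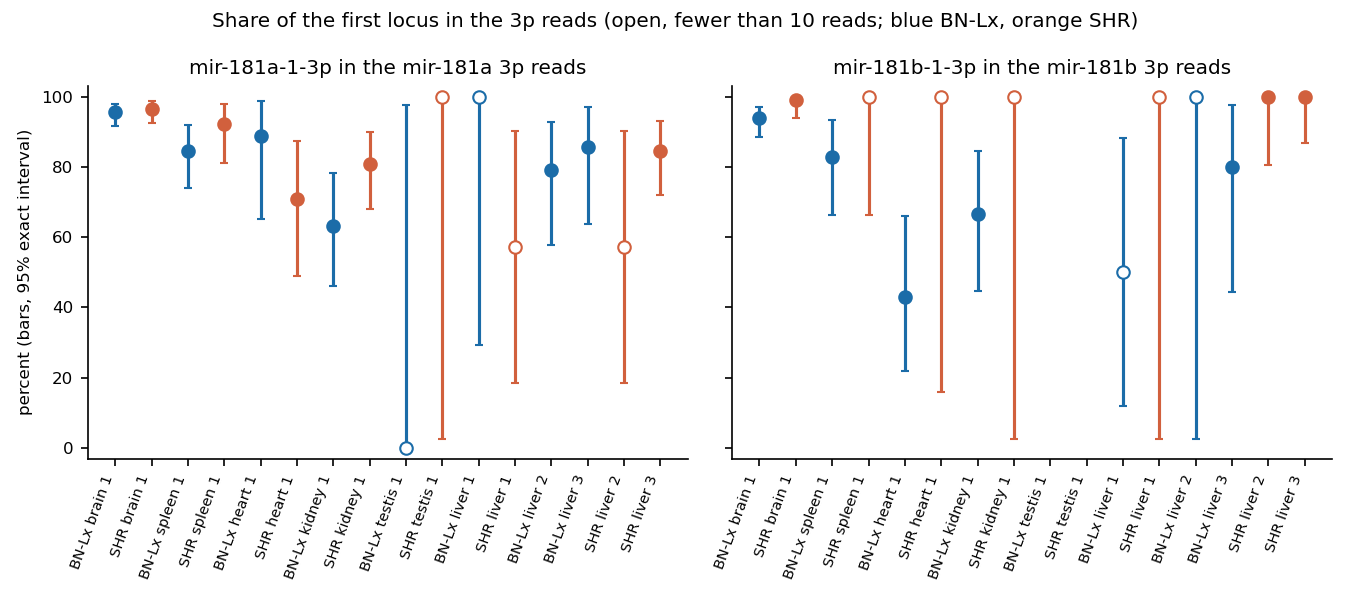
Percent of mir-181a 3p reads that came from mir-181a-1 (left) and of mir-181b 3p reads that came from mir-181b-1 (right) in each library, with 95% exact intervals; open symbols rest on fewer than 10 reads, blue is BN-Lx and orange SHR, and libraries with no such read have no symbol. Both brains lie at 95.5% and 96.4% on the left, with BN-Lx kidney lowest at 63.2% among filled symbols, and on the right BN-Lx heart is at 42.9%.

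For mir-181c both arms belong to 1 locus, so the arms can be set against each other. Its 3p arm had levels of 127 and 94.9 in heart, 102.8 and 99.9 in brain, 75.9 and 89.8 in spleen, 62.5 and 66.8 in kidney, 38.5 and 79.4 in testis, and 16.5 and 16.2 in liver. Heart and brain overlapped and both livers were below all other libraries. Brain exceeded the 4 tissues by 0.98 on the log2 scale (SE 0.43, edgeR adjusted p = 0.065) and spleen by 0.69 (SE 0.45, adjusted p = 0.33). Of the mir-181c reads in brain the 3p arm made up 24.1% (interval 21.0 to 27.5) and 33.1% (28.3 to 38.1). In heart it was 30.4% (22.5 to 39.3) and 14.2% (10.6 to 18.5), with intervals that did not overlap. The mean share in brain, 28.6%, and that of the other 10 libraries, 24.2%, differed by 4.40 percentage points (exact permutation p = 0.48, two-sided). By contrast, mir-181d-3p had 6 reads in all 16 libraries, at most 2 in any 1 of them, beside 343 reads of its 5p arm.

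Within the seed that mir-181a-1-3p and mir-181c-3p share, mir-181c-3p provided 70.4% of the reads in BN-Lx heart (interval 56.4 to 82.0) and 72.6% in SHR heart (59.8 to 83.2). In spleen it provided 39.4% (29.7 to 49.7) and 44.7% (33.9 to 55.9), and in brain 46.8% (41.6 to 52.1) and 43.0% (37.1 to 48.9). In both strains the heart interval lay above those of brain and spleen.

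**Figure D4:**
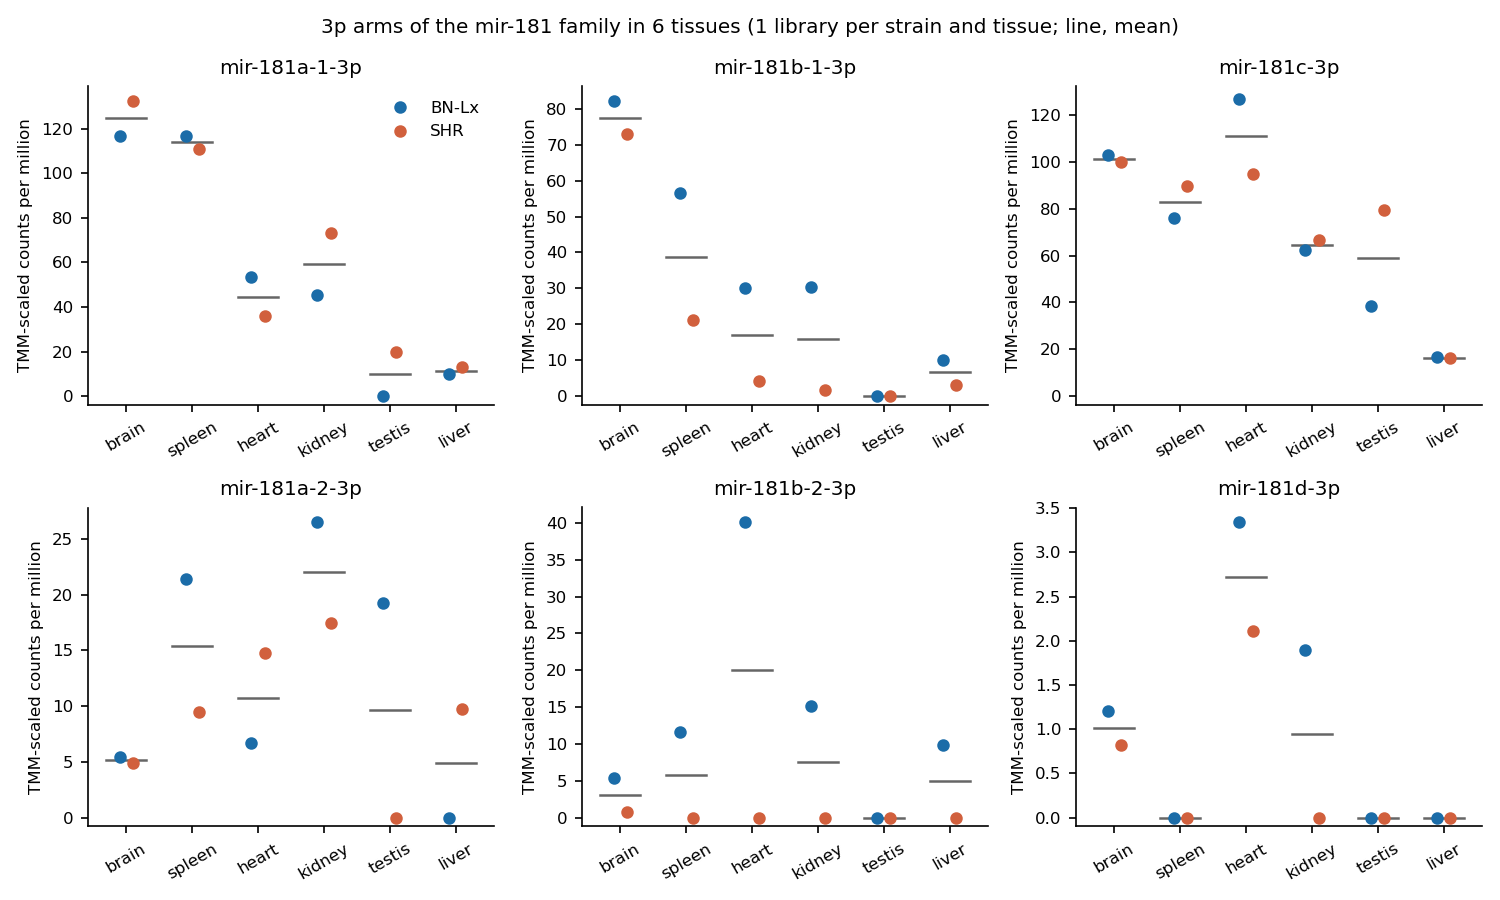
Levels of the 3p arms, in TMM-scaled CPM on linear axes that differ between panels; each point is 1 library (blue BN-Lx, orange SHR) and the line is the mean of both strains. mir-181b-1-3p is highest in both brains, at 72.9 to 82.3, mir-181a-1-3p overlaps between brain, at 117 to 133, and spleen, mir-181a-2-3p has its highest mean in kidney, and mir-181b-2-3p has reads in 5 BN-Lx tissues and 1 SHR tissue.

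Taking the members as a group, 8 of 10 arms could be tested, as mir-181b-2-3p and mir-181d-3p were below the expression filter. In brain against the 4 tissues 3 of 8 rose, mir-181a-5p, mir-181a-1-3p and mir-181b-1-3p, and none fell. Of all 455 arms tested 61.1% were called in that comparison and 38.7% were higher in brain, so 3 of 8 is close to the background (22.4% were lower, and 64.0% had an unadjusted p of at most 0.05, as 4 of the 8 members did). The median log2 difference was 1.10 for the members and 0.48 for all arms. In spleen 3 of 8 rose, mir-181a-5p, mir-181c-5p and mir-181a-1-3p, where 22.6% of all arms were called 15.6% were higher and 7.03% lower, with medians of 0.98 and 0.23. At an unadjusted p of at most 0.05 there were 4 members in spleen and 35.2% of all arms. Brain and spleen are set against the same 4 tissues, so the comparisons share those libraries. Between brain and spleen directly, none of the 8 was called by edgeR (0 also without adjustment, where 61.5% of all arms had p of at most 0.05), against 56.3% of all arms, 31.4% higher and 24.8% lower in brain.

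The count in brain depended on how libraries were scaled. The median of all arms in brain against the 4 tissues was 0.48 with TMM, 0.87 with RLE size factors, 0.93 with the outlier-corrected mean used by the study and 1.17 with total reads. With each of these last 3 scalings 7 of the 8 members were called higher in brain, all but mir-181a-2-3p, and with DESeq2 6 were. Of all 455 arms 42.4% (RLE), 42.6% (outlier-corrected mean), 44.6% (total reads) and 32.1% (DESeq2) were called higher in brain under the same settings. The share of called arms that were higher in brain moved from 63.3% to 74.4% with total reads. Relative to the median of all arms, mir-181a-5p was higher in brain by 1.38 with TMM and 1.34, 1.31 and 1.32 with the other 3, mir-181a-1-3p by 1.93 against 1.86 to 1.89 and mir-181c-5p by 0.32 against 0.27 to 0.28. Total reads gave 2 calls between brain and spleen, mir-181b-1-3p (log2 2.24, adjusted p = 0.047) and mir-181b-5p (1.72, adjusted p = 0.048). The order of tissues also depended on the scaling. Over the outlier-corrected mean, mir-181b-5p was at 0.821 and 0.403 in brain and 0.323 and 0.414 in heart. For mir-181c-5p brain was at 0.399 and 0.233 and heart at 0.202 and 0.398. For mir-181d-5p brain was at 0.0762 and 0.0556 and heart at 0.0395 and 0.0835. The mean of each was then higher in brain than in heart.

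**Figure D5:**
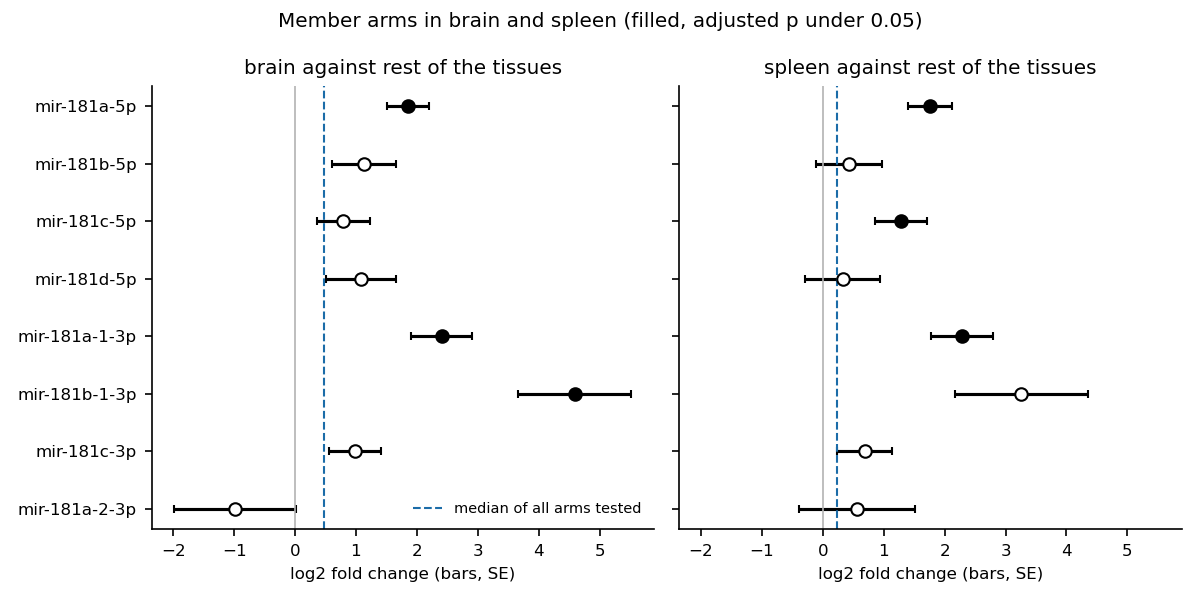
Log2 fold change of the 8 member arms tested, in brain (left) and spleen (right) against the mean of liver, heart, testis and kidney, with SE; filled symbols passed an adjusted p of 0.05 and the dashed line is the median of all 455 arms, 0.48 and 0.23. mir-181a-5p lies at 1.85 and 1.76 and mir-181a-1-3p at 2.41 and 2.29, while mir-181b-5p is at 1.13 in brain and 0.43 in spleen.

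Calls in spleen were lost when a spleen library was left out, which leaves spleen with 1 library that is assumed to vary like the other tissues. Without the BN-Lx spleen none of the members was called, at log2 differences of 1.28 for mir-181a-5p, 1.41 for mir-181c-5p and 2.14 for mir-181a-1-3p. Without the SHR spleen these were 2.11, 1.09 and 2.39, of which that of mir-181a-5p was called (adjusted p = 0.021). With the 4 further livers added, mir-181a-5p alone remained (log2 1.70, adjusted p = 0.0061). Arms known as markers of blood cells and neurons were set beside these values. All 4 arms of the spleen list (both arms of mir-142, mir-150-5p and mir-223-3p) were highest in spleen, with summed levels of 221000 to 266200 there and 5035 to 30640 elsewhere, and the 3 erythroid arms (mir-144 and mir-451) summed to 68610 to 130200 in spleen and 1250 to 34450 elsewhere. In brain the neuronal list (mir-124, mir-9 and mir-128, with 4 of 4 arms highest there) summed to 29170 to 52060, against 156 to 1823 elsewhere. Its mir-124 arms had equal levels in each library and are not separate markers. The part of these cells in the mir-181 levels was not tested.

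In the study an arm counted as specific to a tissue if its reads over the outlier-corrected mean were 5-fold or more above each of the remaining tissues, in both strains. None of the 10 members met it, whereas 211 of the 710 arms did. At 3-fold no member met it either, of 257 arms. On that scale mir-181a-5p was at 3.03 and 2.13 in brain, 1.66 and 1.19 in spleen, and 0.211 and 0.311 in liver.

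The strains were compared within tissues over the 12 libraries, and edgeR called 0 of 455 arms (without adjustment 7 had p of at most 0.05, or 1.54%; DESeq2 also called 0). Among the members, mir-181b-1-3p had the lowest log2 difference of SHR from BN-Lx, -1.67 (SE 0.64, unadjusted p = 0.025, adjusted p = 0.99). Of all 455 arms 1 lay lower, mir-183-3p. The member mir-181b-1-3p was lower in SHR in each of the 5 tissues with reads. It had 136 and 89 reads in brain, 29 and 9 in spleen, and 9 and 2 in heart. In kidney it had 16 and 1, and in liver 3 and 1. The brain accounted for 89 of the 102 reads in SHR and for 136 of 193 in BN-Lx. With the 4 further livers in the fit the difference shrank to -0.65 (adjusted p = 0.9995). The other 7 tested members differed between -0.09 and 0.38.

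The 3p arm of the other mir-181b locus was also lower in SHR in each tissue with reads, and was singled out after its values were seen. It had 38 reads in the 6 BN-Lx tissues and 1 in those of SHR, although the strains had 3245387 and 3116259 reads in all, a ratio of 36.5 per read sequenced (95% interval 6.17 to 1479, counting error only). The BN-Lx reads were 9 in brain, 3 in liver, 6 in spleen, 12 in heart and 8 in kidney, and the SHR read was in brain. Where SHR had no reads, 3 reads per SHR library were taken as the limit. The BN-Lx level was 6.34 times that limit in heart, 3.17 times in kidney and 1.65 times in spleen. The 12, 8 and 6 BN-Lx reads were taken as exact, so these folds are not lower bounds. In liver the BN-Lx library itself had 3 reads, so no fold is given. The tissues of a strain come from 1 rat and are no replicates of the strain. In edgeR without the filter this arm had an adjusted p of 0.32 over 685 arms (0.00047 before adjustment), and none of them was called. Among the further livers those of BN-Lx had 0 and 2 such reads and those of SHR none. The arm had no single form, as its 41 reads over 16 libraries began at 5 positions, 15 of them away from the commonest.

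The 5p arm of mir-181b was not lower in SHR throughout. Its reads numbered 1677 and 1080, and its level was higher in BN-Lx in 3 tissues and in SHR in 3. The strains differed by 0.07 on the log2 scale (SE 0.43, adjusted p = 0.99, edgeR). The 3p reads of both loci thus made up 13.1% of the mir-181b reads in BN-Lx heart (interval 8.31 to 19.4) and 0.702% in SHR heart (2 of 285 reads, 0.0851 to 2.51). In kidney the values were 10.3% (6.71 to 14.9) and 0.452% (1 of 221, 0.0115 to 2.50), while in brain they were 11.7% (9.93 to 13.6) and 17.4% (14.2 to 20.9). The direction in brain was the opposite of that in heart and kidney. In a fit of all 16 libraries, the strain effect on mir-181b-1-3p less that in liver was -4.89 on the log2 scale in kidney (SE 2.15). It was -3.49 in heart (SE 2.04), -2.22 in spleen (SE 1.80) and -1.12 in brain (SE 1.69). Each tissue but liver has 1 library per strain there, so the spread came from the livers alone, which mix both sets. That fit cannot decide whether the strain effect differs between tissues.

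In liver, 3 SHR and 3 BN-Lx rats were compared. Levels in this paragraph were scaled among the livers only and are not comparable with those above. The BN-Lx livers had mir-181a-5p at 144.5, 151 and 237.5, and the SHR livers at 180.98, 138 and 144.4. The strains overlapped, with means of 178 ± 52.0 and 155 ± 23.1 (SD, n = 3). The log2 difference was -0.20 (SE 0.42, edgeR adjusted p = 0.9996). For mir-181c-5p the levels were 16.5, 20.3 and 9.61 (BN-Lx) against 36.2, 16.3 and 17.1 (SHR), a log2 difference of 0.56 (SE 0.58, adjusted p = 0.9996). None of the 5 members tested was called, nor any of 271 arms (without adjustment 7 had p of at most 0.05, or 2.58%; DESeq2 called 0, and 10 without adjustment). The exact permutation test of a single member, which cannot go below 0.1 with 3 against 3, gave p of 0.4 or more for each of the 10 arms. By another test, the paper reported strain differences in liver for miRNAs outside this family. Among them was mir-34a, for which it also found the difference by qRT-PCR. The absence of calls here does not show that the strains are equal.

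The level of mir-181b-5p was lower in the further livers than in those of the first set. The livers of the first set had 11 (BN-Lx) and 53 (SHR) reads, at levels of 20.1 and 76.7. The further livers, sequenced more deeply, had 2 and 15 (BN-Lx) and 4 and 22 (SHR) reads, at levels of 1.69, 13.1, 1.45 and 8.36. All 4 were below both livers of the first set, and the log2 difference between the sets was -2.81 (SE 1.02, unadjusted p = 0.031), which did not pass the correction over 300 arms (edgeR adjusted p = 0.096), of which 26.3% were called. The level of mir-181a-5p differed by 0.11 (SE 0.34) between the sets. This comparison was chosen after the values were seen. The sets also differed in other ways, whose part in it was not tested. The paper reports more PCR cycles for the liver of the SHR rat than for the other tissues. Reads of 25 nt made up 13.7% to 35.3% of mir-181a-5p in the further livers, while those in the first set were at most 24 nt long. The strain difference of mir-181b-5p, 1.29 on the log2 scale (SE 1.41), was 0.29 with a term for the set and -0.59 among the further livers alone, none of them called.

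The 3p reads of mir-181b did not fall with the 5p reads in the further SHR livers. There 17 of 21 mir-181b reads (81.0%, interval 58.1 to 94.6) and 26 of 48 (54.2%, 39.2 to 68.6) were 3p, all of them from mir-181b-1, against 1 of 54 (1.85%, 0.0469 to 9.89) in the SHR liver of the first set. The BN-Lx livers had 6 of 17 in the first set, and 1 of 3 and 10 of 25 in the further livers. mir-181b-1-3p was at a higher level in the further SHR livers, 6.17 and 9.88, than in the SHR liver of the first set, 1.45 from 1 read.

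Read ends were uniform on the 5p side. Over 16 libraries 99.8% of the mir-181a-5p reads, 99.1% of mir-181b-5p, 99.3% of mir-181c-5p and 96.2% of mir-181d-5p began at 1 position, so the seed printed above was that of nearly all reads. On the 3p side mir-181a-1-3p was as uniform (1 of 658 reads elsewhere), and mir-181c-3p began at another position in 48 of 580 reads. The 3′ ends were more spread. The most read length was 23 nt for each 5p sequence, with 48.7% of mir-181a-5p at 23 nt and 19.5% at 24 nt, whereas mir-181b-5p had 48.3% at 23 nt and 1260 of 2800 reads at 24 nt. RefSeq lists mir-181c-5p with 22 nt, and 18.4% of its reads had that length, 38.8% had 23 nt and 33.4% had 24 nt.

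The share of mir-181b-5p reads of 24 nt or more was 43.1% (interval 40.1 to 46.1) in BN-Lx brain and 42.3% (37.6 to 47.1) in SHR brain. In kidney it was 52.2% (45.1 to 59.1) and 52.3% (45.4 to 59.0), in heart 51.8% and 43.5%, and in spleen 37.4% and 50.6%. The mean in brain was 5.75 percentage points below that of the 8 other libraries with at least 10 reads, and the spleens lay on both sides of it (two-sided exact permutation test, p = 0.22, adjusted p = 0.28). The long reads of both loci do not separate them, since the deposited reads were equal for mir-181a-1 and mir-181a-2 in 16 of 16 libraries and differed by at most 3 reads between mir-181b-1 and mir-181b-2.

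The arms most like mir-181a-5p, by Pearson's r of log2 levels over 12 libraries, were mir-29b-2-3p (0.88), mir-29b-1-3p (0.88), mir-187-5p (0.86), mir-138-1-3p (0.84) and mir-708-5p (0.81). Both mir-29b arms share their reads, and all points share the libraries and their depth. Within the family, r with mir-181a-5p was 0.81 for mir-181b-5p, 0.80 for mir-181a-1-3p, 0.80 for mir-181c-5p, 0.77 for mir-181b-1-3p, 0.74 for mir-181c-3p, 0.65 for mir-181d-5p and 0.44 for mir-181a-2-3p. By Spearman's rho the order was another, with mir-138-1-3p at 0.91, mir-181a-1-3p at 0.90, mir-181b-5p and mir-181c-5p at 0.79, and the mir-29b arms at 0.75 and 0.74. For mir-181b-5p the 3 most similar arms were mir-708-5p (0.77), mir-29b-1-3p (0.75) and mir-29b-2-3p (0.75), and for mir-181c-5p they were mir-7a-1-3p (0.82), mir-342-3p (0.77) and mir-301a-3p (0.71). For mir-181a-1-3p they were let-7i-3p (0.93), hsa-mir-582-3p (0.88), named in the files after the human hairpin, and mir-187-3p (0.87). The levels of mir-138-1-3p were 281 and 245 in brain and at most 46.7 elsewhere, so a high coefficient does not mean equal ratios between tissues. No test was made of these coefficients.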

How the data were processed

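For each of 16 libraries the authors deposited estimated counts, 1 for each pair of read ends found on a hairpin. The authors sequenced on SOLiD, mapped with SHRiMP to hairpins of RGSC3.4 and miRBase, kept perfect matches and divided reads that fit several hairpins evenly. The deposited values are not normalized, and the authors divided reads by the outlier-corrected mean in later steps. A list of piRNA clusters was not used.

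Positions were assigned to arms, and the 5p arms of mir-181a-1 and mir-181a-2, and of mir-181b-1 and mir-181b-2, were summed. Counts were rounded and all arms were fitted with edgeR 4.0.16 (TMM, filterByExpr, quasi-likelihood test, two-sided, Benjamini-Hochberg at 0.05) in R 4.3.3. The tissue fit had terms for tissue and strain over 12 libraries, and the liver fit had strain over 6. Standard errors are the log2 fold change over the square root of F. Intervals of shares are exact (Clopper-Pearson, scipy 1.17.1), and mean shares were compared over libraries with at least 10 reads. Likeness used log2(level + 1). Tissues of a strain share a rat, and the strain term takes out what the 2 rats differ by in all tissues. The p-values of the tissue comparisons thus measure the spread that remains between the 2 libraries of a tissue, pooled over the 6 tissues. The fits were tested on simulated counts.

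Livers of both strains share replicate numbers 1 to 3, of which number 1 marks the first set. Deviations from the strain means correlated at 0.67, 0.58 and 0.30 across arms within a number, and at -0.58 to 0.19 between numbers. As number 1 also marks the set, these values cannot separate a pairing of livers from a difference between the sets. The liver fit therefore had no block, and a block by number was an alternative.

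All 10 arms and the arms most similar to 4 of them are named. The members and the marker lists were chosen with earlier results of these data known. Alternatives were DESeq2 1.42.0, RLE factors, total reads, the outlier-corrected mean (the mean over arms without the 3 most read), other filters, hairpin arms kept separate or paralogues summed, other terms, libraries left out or added, reads of at least 17 nt, minimums of 5 and 20 reads, pooled reads, a 3-fold rule and 1 strain alone. A term for the further livers was added after seeing the data. The depth of each library is given in the text as a range.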

Additional observations from a re-analysis of the deposited data

How the results depend on the processing

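The 3 members called in brain kept direction and call under each alternative that gave them a value. Their number rose to 6 with DESeq2 and to 7 with RLE factors, total reads, the outlier-corrected mean and summed paralogues (32.1%, 42.4%, 44.6%, 42.6% and 41.4% of all arms were then higher in brain), and lay between 3 and 4 when 1 library was left out (210 to 287 arms of all). Spleen called 0 to 4 members and 36 to 124 arms of all with 1 library left out, the lowest without the BN-Lx spleen, and 1 member and 65 arms with the 4 further livers. The share of called arms that were higher in spleen was 68.9%, and 56.0% with the outlier-corrected mean, and that higher in brain than in spleen was 55.9%, and 70.04% with total reads, which called 2 members there. Strain called 0 members and 0 arms under every alternative, over 6 tissues and in liver, and with the replicate block, which pairs the livers, as without it (0 called, 20 arms at an unadjusted p of 0.05). Without the block for strain brain called 4 members, mir-181c-3p being added (adjusted p = 0.046), and spleen the same 3. The 5-fold rule was met by 1 member in SHR alone, mir-181b-2-3p in brain from 1 read. The share results stayed without a call. For both locus shares, and for every share with a brain library left out, the libraries were too few for the permutation test to reach 0.05. For the 3p share of mir-181c, the difference of brain from the other libraries was -0.058 to 8.86 percentage points with a brain library left out.

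Signs changed for differences not called by edgeR with TMM, of which mir-181c-5p in brain against the 4 tissues and mir-181b-5p in brain against spleen were called higher in brain under other scalings. Brain against spleen gave 0.094 (DESeq2), 0.093 (RLE), 0.48 (total reads) and 0.24 (outlier-corrected mean) for mir-181c-5p and -0.014 with at least 10 reads in 2 libraries for mir-181a-5p. Spleen against the 4 tissues gave -0.0019 (total reads), -0.0099 (outlier-corrected mean) and -0.15 (no testis) for mir-181d-5p. In liver mir-181b-5p was at -0.59 among the 4 further livers. With 1 library left out, brain against the 4 tissues ranged from -0.010 to 1.43 for mir-181c-5p and from -1.36 to 0.36 for mir-181a-2-3p. Brain against spleen ranged from -0.31 to 0.54 for mir-181a-5p, -0.15 to 1.47 for mir-181b-5p, -1.32 to 0.18 for mir-181c-5p and -0.059 to 0.23 for mir-181a-1-3p. Spleen against the 4 tissues ranged from -0.31 to 0.97 for mir-181b-5p and -0.21 to 1.95 for mir-181a-2-3p, and the livers from -1.19 to 1.99 for mir-181b-5p and -0.32 to 0.037 for mir-181a-5p. The cause of these changes was not tested. Depth limits the 3p arms in testis and liver, where most rest on fewer than 10 reads.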
